A study of Homo sapiens with 26 samples.

Results

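The 10 genes described here encode integrin subunits of epithelial cells, the α chains ITGA2, ITGA3, ITGA5, ITGA6 and ITGAV and the β chains ITGB1, ITGB4, ITGB5, ITGB6 and ITGB8. They were picked by name as a family, with no threshold on any measured value, although earlier results of these data were known, and every probeset that the platform annotation assigns to exactly 1 of these symbols was taken. This gave 336 probesets, between 22 for ITGB6 and 48 for ITGB4, out of 354421 with a single gene symbol, and 325 of them were brighter than background. All 10 genes had at least 3 such probesets and are among the 16600 genes measured.

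The RNA came from MCF10A, an established human mammary epithelial line that does not form tumours, so every array is of the same line. The series holds 26 exon arrays in 16 groups. Cells received EGF (10 ng per ml) together with DEX (dexamethasone, a synthetic glucocorticoid, 100 nM), DEX alone or EGF alone, and each treatment was sampled on 2 arrays at 20, 40 and 60 min and on 1 array at 120 and 240 min, against 2 arrays of untreated cells at 0 min. All cells, untreated ones included, had been cultured with EGF, hydrocortisone (itself a glucocorticoid), insulin, cholera toxin and horse serum and were starved overnight before treatment. The 26 arrays include none of untreated cells at later times. An effect of an agent and an effect of elapsed time therefore cannot be told apart in comparisons with untreated cells. EGF+DEX against EGF, EGF+DEX against DEX and DEX against EGF, in contrast, set arrays of the same times against each other. The labels tell replicates apart by number alone, and p-values therefore measure the spread between these arrays, which may be technical. The comparisons of each treatment with untreated cells share the 2 untreated arrays. The single arrays at 120 and 240 min were taken to vary as the replicated groups do.

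Background was set at the median of the probesets that carry no gene name, 4.65 on the log2 scale (their upper quartile is 5.97). Between 61.1% and 62.7% of an array's probesets exceeded it, and arrays of the same group correlated at 0.9768 to 0.9865. The basal epithelial markers KRT5, KRT14, KRT17, TP63 and CDH3 were at 8.85 or more on every array, and the 4 measured luminal markers were between 5.35 (ESR1) and 9.45 (KRT18). The 5 fibroblast markers lay between 5.18 and 6.83 and the 4 measured leukocyte markers between 4.43 (CD3E) and 7.57 (CD14). Averaged over the 5 times, EGF raised EGR1 by 1.26 ± 0.24 and FOSL1 by 1.77 ± 0.14 on the log2 scale, and DEX raised TSC22D3 by 1.46 ± 0.10 and SGK1 by 1.54 ± 0.12 (SE, adjusted p of the F-test over the times from 1.37e-06 to 0.00059). EGR1 and FOSL1 are known targets of growth factor signalling and TSC22D3 and SGK1 of the glucocorticoid receptor. EGR1 also passed the F-test with DEX (mean -0.27 ± 0.24, -1.26 at 120 min, adjusted p = 0.0308), a call lost in 6 of 35 alternatives and turned in direction in 1. Its DEX arrays of 20 and 40 min lay above the untreated mean, by 0.023 to 0.84. TSC22D3 with EGF was at -0.45 ± 0.10 without passing (F-test, adjusted p = 0.0544). Neither FOSL1 with DEX nor SGK1 with EGF passed (F-test, adjusted p = 0.0862 and 0.219).

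Integrins are receptors for the extracellular matrix that work as pairs of an α and a β chain at the cell surface, and they join the matrix outside to actin or keratin filaments inside. The ITGB1 chain is shared by many α chains: with ITGA2 it binds collagen, with ITGA3 and ITGA6 laminin, and with ITGA5 fibronectin. ITGA6 also pairs with ITGB4, which anchors basal cells to laminin at hemidesmosomes. ITGAV pairs with ITGB5, ITGB6 or ITGB8, and its pairs with ITGB6 and ITGB8 release active TGF-β from its latent complex. Epithelial cells that migrate, as in wound repair, are known to change which of these receptors they make.

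The promoters of the 3 genes that passed the test in at least 1 comparison below are shown so that they can be set beside their time courses. RefSeq promoters (250 bases before the annotated start to 50 after it, build GRCh38.p14) were matched by symbol for 8 of the 10 genes, and ITGA3 and ITGB4 had none in the table. Capitals mark matches, on either strand, to the AP-1 site TGANTCA, to the hexamer AGAACA or TGTTCT of the glucocorticoid receptor half-site, and to the GC box GGGCGG or CCGCCC. The motifs were chosen with the results known and after the sequences were seen. None of the marked matches overlap, and all sequences run 5′ to 3′ on the strand of the gene.
ITGA2, chr5:52989102-52989401, plus strand: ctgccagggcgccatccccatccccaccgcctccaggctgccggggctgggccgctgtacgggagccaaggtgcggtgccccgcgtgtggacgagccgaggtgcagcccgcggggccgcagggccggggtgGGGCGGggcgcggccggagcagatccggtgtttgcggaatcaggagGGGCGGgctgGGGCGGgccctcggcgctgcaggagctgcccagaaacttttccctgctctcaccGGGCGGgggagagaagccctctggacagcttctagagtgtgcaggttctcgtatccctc
ITGA5, chr12:54419217-54419516, minus strand: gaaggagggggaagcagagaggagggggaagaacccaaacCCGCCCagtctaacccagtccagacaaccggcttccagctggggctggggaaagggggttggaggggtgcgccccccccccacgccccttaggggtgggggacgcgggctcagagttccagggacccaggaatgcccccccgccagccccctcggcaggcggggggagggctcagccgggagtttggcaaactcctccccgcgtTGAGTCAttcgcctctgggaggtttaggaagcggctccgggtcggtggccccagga
ITGB6, chr2:160200223-160200522, minus strand: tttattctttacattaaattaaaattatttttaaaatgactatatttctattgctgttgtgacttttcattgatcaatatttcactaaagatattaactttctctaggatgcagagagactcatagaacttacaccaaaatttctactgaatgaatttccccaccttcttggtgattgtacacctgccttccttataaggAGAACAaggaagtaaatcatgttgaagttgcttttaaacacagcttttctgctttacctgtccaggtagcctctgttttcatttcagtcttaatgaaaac
The promoter of ITGA2 was 72.7% G and C and held 4 GC boxes, a motif found in 45.0% of all 35116 promoters in the table. The promoter of ITGA5 was 69.3% G and C, with 1 AP-1 site that begins 6 bases before the start, as in 7.71% of all promoters, and 1 GC box. The promoter of ITGB6 was the poorest in G and C of these (31.7%, at the 1.74th percentile of all promoters) and held 1 half-site 50 bases before the start, a hexamer found in 14.8% of all promoters. Among subunits that passed no gene-level comparison, the promoters of ITGA6 held 2 and 1 half-sites and 1 and 3 GC boxes. These promoters overlap, and the GC box 34 bases after the first start is also the one 217 bases before the second. GC boxes also lay in promoters of ITGB1 (0 and 3), ITGB5 (3, 2 and 2) and ITGB8 (2), and those of ITGAV had no match. None of these promoters held an AP-1 site. The half-site and the GC box were thus not particular to the called genes. All these matches describe the sequence and are not binding sites measured here.

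ITGA2 fell to 0.415-fold of untreated cells after 240 min of DEX, whereas its late level with EGF was 1.61-fold that of untreated cells. ITGB6 was 1.81-fold higher late with EGF, and both genes were lower with DEX than with EGF. ITGA5 rose 2.03-fold with EGF+DEX and 1.98-fold with DEX by 240 min, and ITGA3 was lower with DEX than with EGF, by less than the fold minimum over the 5 times and by -0.88 at 120 min and -0.63 at 240 min on 1 array per agent. The differences were widest at 120 and 240 min. The other 6 subunits passed in none of the 12 gene-level comparisons. In RNA from whole cultures, fewer cells that make a transcript and less of it per cell cannot be told apart. The plot of levels over time shows all 10 on 1 scale.

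**Figure D1:**
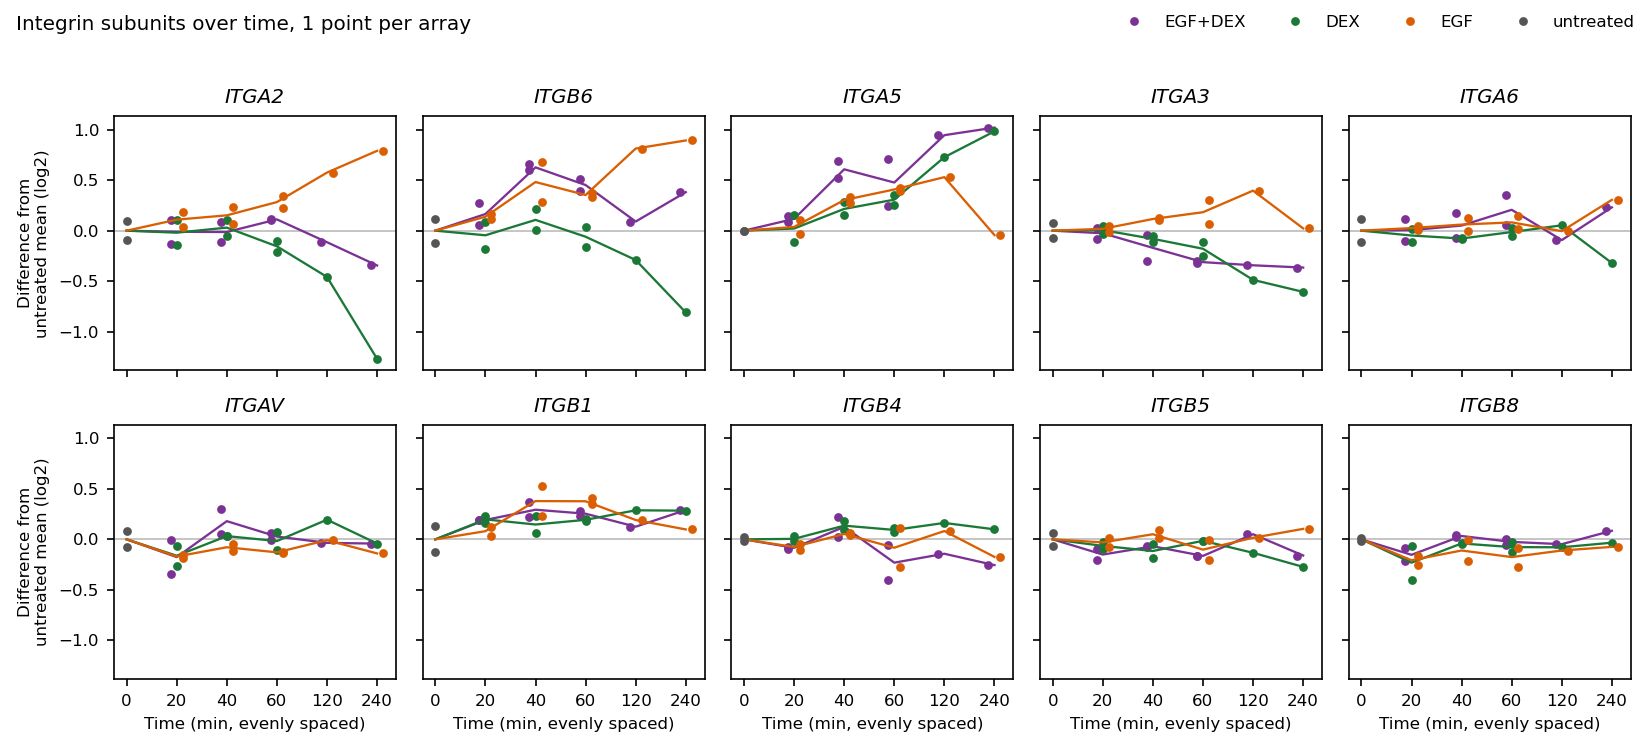
Level of each integrin subunit (log2, relative to the mean of the 2 untreated arrays) at 0 to 240 min, times evenly spaced on the axis, with 1 point per array and lines through the group means for EGF+DEX, DEX and EGF. ITGA2 and ITGB6 at 240 min lie at -1.27 and -0.81 with DEX and at 0.79 and 0.89 with EGF, and ITGA5 lies at 1.02 with EGF+DEX and 0.98 with DEX. ITGA3, ITGA6 and the 5 genes in the lower row were called in no gene-level comparison.

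A gene was called when its adjusted p (Benjamini-Hochberg, over all 16600 genes) was under 0.05 and its difference was at least 1.5-fold. For an agent against untreated cells the test was an F-test over the 5 times, with the largest of the 5 differences as the size. The late comparisons use the mean of 120 and 240 min, and late against early sets this against the mean of 20 and 40 min within a treatment. DEX against untreated called 2 of the 10 subunits (ITGA2 and ITGA5), where 3.54% of all genes were called, and EGF+DEX against untreated called 1 (ITGA5), where 4.87% were. EGF against untreated called 0, with 0.729% of all genes called. At an unadjusted p under 0.05, 4 subunits passed that F-test, as did 10.9% of all genes. Between the agents themselves, DEX against EGF called 2 (ITGA2 and ITGB6, background 2.47%). EGF+DEX against EGF called 0 over the 5 times (background 0.753%), and EGF+DEX against DEX called 0 (background 0.361%). At an unadjusted p under 0.05, 4 subunits passed against EGF, where 38.2% of all genes did, and 5 against DEX, where 17.1% did. The calls of these 6 comparisons were thus on ITGA2, ITGA5 and ITGB6 alone. Among the late comparisons, EGF called 2 (ITGA2 and ITGB6, background 1.41%) and DEX called 2 (ITGA2 and ITGA5, background 3.67%) against untreated cells, and EGF+DEX called 3 against EGF (ITGA2, ITGA5 and ITGB6, background 2.30%). Late against early called 2 within DEX (ITGA2 and ITGA5, background 3.08%), 1 within EGF+DEX (ITGA5, background 4.02%) and 0 within EGF (background 0.627%, with 2 subunits and 11% of all genes at an unadjusted p under 0.05). The median of the mean differences over the 10 subunits was small throughout, at -0.087 for DEX and 0.12 for EGF against untreated cells, beside -0.059 and -0.0077 over all genes.

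ITGA2 encodes the α2 chain of the collagen receptor. In EGF+DEX cells its log2 levels were 8.70 and 8.46 at 20 min, 8.67 and 8.48 at 40 min, 8.71 and 8.70 at 60 min, 8.48 at 120 min and 8.25 at 240 min. In DEX cells they were 8.70 and 8.45, 8.54 and 8.70, 8.49 and 8.38, 8.13, and 7.32 at the same times. In EGF cells they were 8.62 and 8.78, 8.66 and 8.83, 8.93 and 8.82, 9.17, and 9.38, against 8.68 and 8.50 in untreated cells. The DEX arrays thus lay below both untreated arrays from 60 min on and the EGF arrays above them from 60 min on, while the EGF+DEX arrays stayed near the untreated ones until 120 min.

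With DEX, ITGA2 at 240 min was at 0.415-fold of untreated cells (-1.27 ± 0.16 on the log2 scale, SE, adjusted p of the F-test 0.00107), and its late mean differed by -0.86 ± 0.13 (adjusted p = 0.000764). Within DEX, where no untreated array enters, the late mean minus the early one was -0.87 ± 0.12 (adjusted p = 0.000192). With EGF the late mean was 1.61-fold that of untreated cells (0.68 ± 0.13, adjusted p = 0.0166), although the F-test over the 5 times missed the threshold (adjusted p = 0.108). Set directly against EGF, DEX gave a mean difference of -0.76 ± 0.07 over the 5 times (adjusted p = 1.18e-06), and at 240 min the DEX level was 0.240-fold the EGF level. With both agents the late level was below that with EGF, with a difference of -0.91 ± 0.13 (adjusted p = 0.000703). EGF+DEX cells nevertheless lay above DEX cells at 240 min by 0.93 ± 0.19, and over the 5 times by 0.30 ± 0.07 (adjusted p = 0.0274, under the fold minimum). Against untreated cells EGF+DEX gave -0.34 ± 0.16 at 240 min, and its F-test did not pass (adjusted p = 0.488).

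These calls rest on the single arrays at 240 min. Without the DEX array of 240 min, or without that of EGF, the mean difference between DEX and EGF was -0.43 (adjusted p = 0.00114), under the fold minimum, and without either 240 min array of EGF+DEX or EGF the late difference of EGF+DEX from EGF was -0.69 (adjusted p = 0.119). Without the DEX array, the largest difference of ITGA2 from untreated cells was -0.46 (adjusted p = 0.399) and late against early within DEX -0.46 (adjusted p = 0.21), and without the EGF array the late difference was 0.58 (adjusted p = 0.155). The late call for EGF was also lost without untreated replicate 2 (0.59, adjusted p = 0.22).

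ITGB6 encodes the β6 chain, which pairs only with αv and binds fibronectin and latent TGF-β. In EGF+DEX cells its levels were 8.47 and 8.25 at 20 min, 8.85 and 8.80 at 40 min, 8.59 and 8.71 at 60 min, 8.29 at 120 min and 8.58 at 240 min. In DEX cells they were 8.29 and 8.02, 8.41 and 8.20, 8.24 and 8.04, 7.91, and 7.39. In EGF cells they were 8.36 and 8.31, 8.48 and 8.88, 8.57 and 8.53, 9.01, and 9.09, against 8.32 and 8.08 in untreated cells. All EGF arrays from 40 min on were above the untreated ones, while the DEX arrays were below both untreated ones at 120 and 240 min and in the second replicate of 20 and of 60 min. The EGF+DEX arrays were above both at 40, 60 and 240 min and in the first replicate of 20 min.

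The late mean of ITGB6 with EGF was 1.81-fold that of untreated cells (0.85 ± 0.15, adjusted p = 0.00794), while the F-test over all times gave an adjusted p of 0.0649. With DEX the largest difference was -0.81 ± 0.18 at 240 min (F-test, adjusted p = 0.062), and the late mean differed by -0.55 ± 0.15 (adjusted p = 0.0425), which is under the fold minimum. DEX against EGF gave -0.76 ± 0.08 over the 5 times (adjusted p = 4.27e-06), and at 240 min -1.70 ± 0.21, a level 0.307-fold that with EGF. Late EGF+DEX was lower than late EGF (-0.62 ± 0.15, adjusted p = 0.0348), but EGF+DEX was higher than DEX over the 5 times, by 0.56 ± 0.08 (adjusted p = 0.000653, just short of 1.5-fold at 1.48-fold), and by 1.19 ± 0.21 at 240 min. ITGB6 with both agents therefore lay between its levels with EGF and with DEX at 120 and 240 min, as ITGA2 did. Without the 240 min array of DEX or of EGF the mean difference between DEX and EGF was -0.52 (adjusted p = 0.000634), under the fold minimum. The late call of EGF+DEX against EGF was lost without either array of 120 min (-0.51, adjusted p = 0.453) or either array of 240 min (-0.72, adjusted p = 0.144), with the mean of probesets (-0.46, adjusted p = 0.188) and with no brightness filter (-0.62, adjusted p = 0.0705). The late call of EGF against untreated was lost without the EGF array of 240 min (0.81, adjusted p = 0.0554) and without untreated replicate 2 (0.74, adjusted p = 0.163).

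ITGA5 encodes the α5 chain of the fibronectin receptor. In EGF+DEX cells its levels were 8.39 and 8.46 at 20 min, 8.83 and 9.0 at 40 min, 9.02 and 8.55 at 60 min, 9.26 at 120 min and 9.33 at 240 min. In DEX cells they were 8.20 and 8.46, 8.46 and 8.59, 8.57 and 8.67, 9.04, and 9.29. In EGF cells they were 8.28 and 8.42, 8.58 and 8.64, 8.74 and 8.70, 8.84, and 8.27, against 8.31 on each of the 2 untreated arrays. From 40 min on, every array of every treatment was above the untreated arrays, except the EGF array of 240 min, which was back at the untreated level.

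ITGA5 rose with EGF+DEX (2.03-fold at 240 min, 1.02 ± 0.18, F-test adjusted p = 0.0033) and with DEX (1.98-fold at 240 min, 0.98 ± 0.18, adjusted p = 0.0104). With EGF the largest difference was 0.53 ± 0.18 at 120 min (adjusted p = 0.287). The late means were above the early ones by 0.62 ± 0.12 within EGF+DEX (adjusted p = 0.00494) and by 0.74 ± 0.12 within DEX (adjusted p = 0.00145). Late EGF+DEX exceeded late EGF by 0.74 ± 0.14 (adjusted p = 0.00734), and over the 5 times by 0.39 ± 0.08 (adjusted p = 0.00427, under the fold minimum). DEX exceeded EGF by 1.03 ± 0.20 at 240 min, although not over the 5 times (0.20 ± 0.08, adjusted p = 0.0539). EGF+DEX and DEX differed by 0.18 ± 0.08 over the 5 times (adjusted p = 0.223). The DEX call was lost without the DEX array of 240 min (0.73, adjusted p = 0.16), and the late call against EGF without either array of 240 min (0.42, adjusted p = 0.383), and late against early within DEX without the DEX array of 240 min (0.61, adjusted p = 0.0895). Late against early within EGF+DEX was lost without the EGF+DEX array of 240 min (0.58, adjusted p = 0.0824), and fell under the fold minimum without the first EGF+DEX replicate of 40 min (0.58) or with the mean of probesets (0.52). The EGF+DEX call against untreated held whichever array was left out, but not with the times to 60 min alone (0.61, adjusted p = 0.0916).

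ITGA3 encodes the α3 chain of a laminin receptor. In EGF+DEX cells its levels were 9.95 and 9.84 at 20 min, 9.63 and 9.88 at 40 min, 9.62 and 9.60 at 60 min, 9.58 at 120 min and 9.56 at 240 min. In DEX cells they were 9.89 and 9.97, 9.81 and 9.87, 9.68 and 9.81, 9.44, and 9.32. In EGF cells they were 9.97 and 9.91, 10.03 and 10.05, 10.23 and 9.99, 10.32, and 9.95, against 9.85 and 10.00 in untreated cells. With either DEX treatment all arrays from 60 min on were below both untreated arrays. ITGA3 did not reach the fold minimum in any of the 12 comparisons in which its p passed. At single times, on 1 array each, it did: DEX against EGF was -0.88 ± 0.17 at 120 min (adjusted p = 0.00798) and -0.63 ± 0.17 at 240 min (adjusted p = 0.0347), and DEX against untreated -0.61 ± 0.15 at 240 min (adjusted p = 0.0247). It was lower with EGF+DEX than with EGF (-0.39 ± 0.07 over the 5 times, adjusted p = 0.00136, and -0.56 ± 0.12 late, adjusted p = 0.0168), lower with DEX than with EGF (-0.42 ± 0.07, adjusted p = 0.000212) and lower late than early within DEX (-0.51 ± 0.11, adjusted p = 0.00714). The F-test of DEX against untreated over the 5 times had an adjusted p of 0.066, whereas the late mean passed (-0.55 ± 0.12, adjusted p = 0.0136). With p as the sole criterion, 3 of the 10 subunits passed in EGF+DEX against EGF, where 20.3% of all genes did, 3 in DEX against EGF (28.3%), 2 in EGF+DEX against DEX (3.14%), 4 in late DEX against untreated (5.11%), 4 in late EGF+DEX against EGF (2.80%), and 4 and 1 in late against early within DEX (6.09%) and EGF (0.843%).

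**Figure D2:**
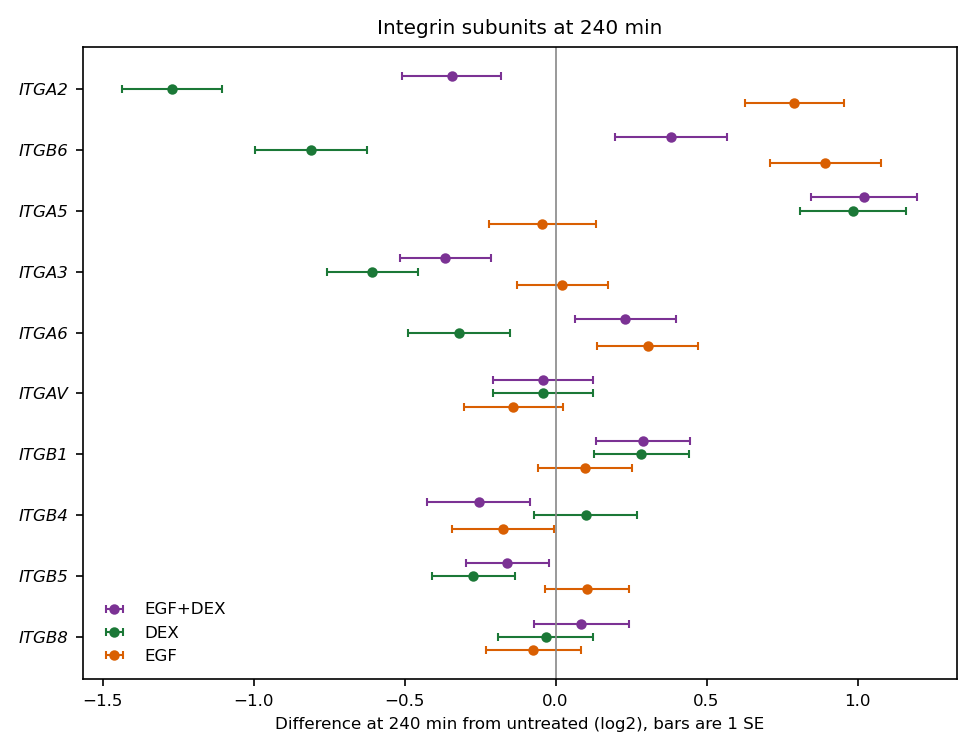
Difference of each integrin subunit from the untreated mean at 240 min (log2, bars are 1 SE of the fit, 1 array per treatment) for EGF+DEX, DEX and EGF. ITGA2 runs from -1.27 ± 0.16 with DEX to 0.79 ± 0.16 with EGF, with EGF+DEX at -0.34 ± 0.16, whereas ITGA5 is at 1.02 ± 0.18 and 0.98 ± 0.18 with EGF+DEX and DEX and at -0.043 ± 0.18 with EGF.

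The partner chains passed in no comparison. ITGB1, the common β1 chain, had levels of 9.84 to 10.09 in EGF+DEX cells (median 9.94), 9.78 to 10.01 in DEX cells (median 9.93) and 9.76 to 10.24 in EGF cells (median 9.93), against 9.59 and 9.85 in untreated cells. Most treated arrays were thus above the untreated ones, under all 3 treatments alike. Its mean differences from untreated cells were 0.23, 0.22 and 0.23 (± 0.10 each). Their 95% intervals, not adjusted for the number of genes, were 0.016 to 0.45, 0.0072 to 0.44 and 0.011 to 0.44. The F-tests over the 5 times, which do not test these means, gave adjusted p of 0.55, 0.671 and 0.424. ITGAV, the partner of ITGB6, had levels of 8.31 to 8.96 with EGF+DEX, 8.40 to 8.86 with DEX and 8.47 to 8.65 with EGF, against 8.58 and 8.74 in untreated cells, so the groups overlapped. DEX and EGF differed in ITGAV by 0.11 ± 0.07 over the 5 times (95% interval -0.044 to 0.26, adjusted p = 0.276), while they differed in ITGB6 by -0.76 (interval -0.92 to -0.59).

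ITGA6, which serves both laminin receptors, had levels of 10.51 to 10.97 with EGF+DEX, 10.29 to 10.66 with DEX and 10.61 to 10.92 with EGF, against 10.49 and 10.73 in untreated cells. Its array farthest from the others was DEX at 240 min (10.29), where EGF+DEX was at 10.84 and EGF at 10.92. DEX minus EGF at that time was -0.63 ± 0.19 (adjusted p = 0.0604 at this time alone, on 1 array each), and all 37 probesets of the gene were lower with DEX (median -0.65). Over the 5 times the difference was -0.18 ± 0.07 (adjusted p = 0.0805). ITGB4, its hemidesmosome partner, had levels of 10.29 to 10.92 with EGF+DEX, 10.67 to 10.87 with DEX and 10.41 to 10.80 with EGF, against 10.67 and 10.71 in untreated cells. Its 2 lowest values before 120 min were both second replicates of 60 min, EGF+DEX at 10.29 and EGF at 10.41, with 10.63 and 10.80 on the first replicates. EGF+DEX minus DEX was -0.22 ± 0.07 for ITGB4 (adjusted p = 0.128).

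ITGB5, a further partner of αv, had levels of 8.73 to 8.98 with EGF+DEX, 8.66 to 8.92 with DEX and 8.73 to 9.03 with EGF, against 8.87 and 8.99 in untreated cells. ITGB8, the β8 chain of the other TGF-β-activating receptor, had levels of 8.99 to 9.29 with EGF+DEX, 8.80 to 9.18 with DEX and 8.93 to 9.20 with EGF, against 9.21 and 9.19 in untreated cells. Neither passed in any gene-level comparison. Over all 12 comparisons the mean differences of these 6 subunits ran from -0.22 to 0.29 on the log2 scale. The 95% intervals of these differences reached -0.47 and 0.55.

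**Figure D3:**
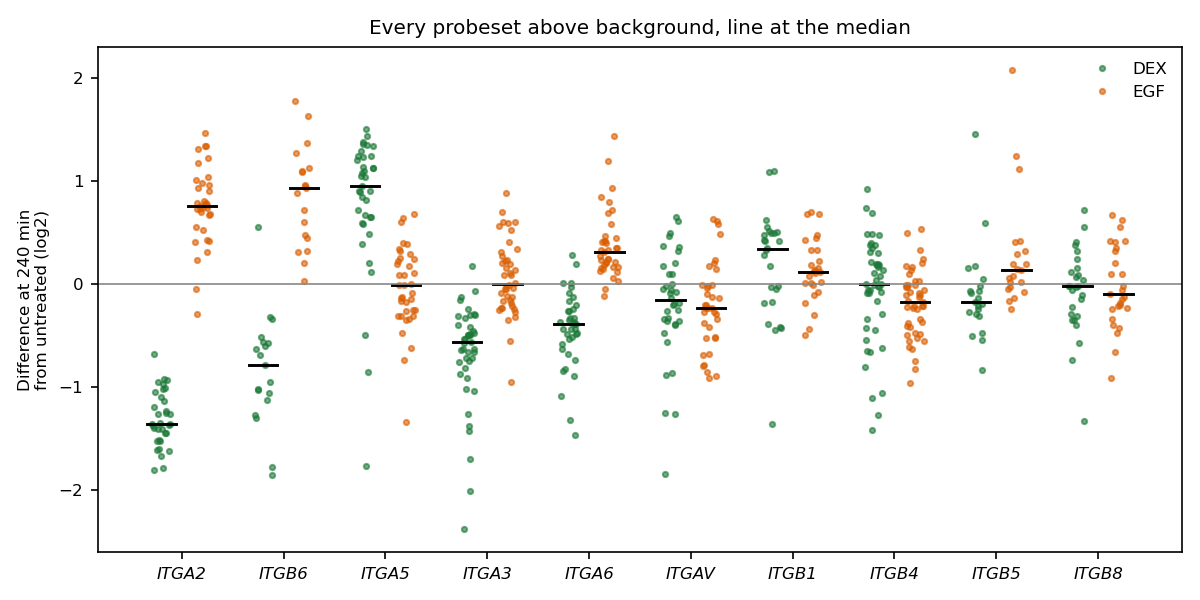
Difference at 240 min from the untreated mean (log2) for each of the 325 probesets above background, 1 point per probeset and a line at the median, with DEX left and EGF right in each pair. All 34 probesets of ITGA2 are below 0 with DEX and 32 are above 0 with EGF, and 34 of 37 of ITGA5 are above 0 with DEX.

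The differences ran along the whole transcripts. At 240 min all 34 probesets of ITGA2 were lower with DEX than in untreated cells (median -1.36), and 32 were higher with EGF (median 0.76). Of the 19 probesets of ITGB6, 18 were lower with DEX (median -0.79) and all were higher with EGF (median 0.93). For ITGA5, 34 of 37 were higher with DEX (median 0.95), and with EGF 17 were higher and 20 lower (median -0.012). For ITGA3, 41 of 42 were lower with DEX (median -0.57), and with EGF 21 were higher and 21 lower. Probesets of a gene share the array they were read on and are not replicates, and these counts carry no test.

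Several integrin chains have alternative cytoplasmic tails, and the exon arrays allow each probeset to be set against the rest of its gene. A gene was called here when its test of unequal exon use passed and at least 1 probeset departed by 1 or more on the log2 scale. EGF+DEX against EGF called 2 subunits (ITGA5 and ITGB1, background 4.07%) and EGF+DEX against untreated called 2 (ITGA5 and ITGB5, background 2.73%). In ITGA5, 1 of 37 probesets (3456781) departed by -1.23 against EGF and by -2.04 against untreated cells, and another (3456763) by 1.1 against untreated cells (adjusted p of the gene 0.000367 and 0.000192). The probeset 3456781 read 4.0 to 5.50 in EGF+DEX cells, 4.43 to 6.22 in DEX cells, 4.49 to 6.62 in EGF cells and 5.81 and 6.64 in untreated cells. These ranges reach down to the background of 4.65. In ITGB1, 1 of 26 probesets (3284190) departed by 1.04 (adjusted p of the gene 0.0214), with readings of 4.57 to 6.70 with EGF+DEX and 3.55 to 7.32 with EGF. In ITGB5, 1 of 21 (2692844) departed by 1.97 (adjusted p of the gene 0.00305), with 7.30 to 8.81 in EGF+DEX cells against 7.79 and 4.31 on the 2 untreated arrays. The counts against untreated cells were 4 without untreated replicate 1 and 0 without untreated replicate 2, and with only probesets above the upper quartile of those with no gene name, 0 subunits were called against EGF and 1 against untreated cells.

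Of the other 16 integrin subunits, all measured, only ITGA10 was called in any of the 12 comparisons. It encodes the α10 chain, a collagen-binding partner of β1 known from cartilage. Its levels were 5.92 and 5.98 at 20 min, 6.35 and 6.10 at 40 min, 6.61 and 6.76 at 60 min, 7.04 at 120 min and 7.42 at 240 min with EGF+DEX, and 5.90 and 6.02, 6.08 and 6.31, 6.48 and 6.39, 6.84, and 7.30 with DEX. With EGF they were 6.03 and 6.01, 6.21 and 5.82, 6.18 and 5.95, 5.77, and 5.72, against 5.67 and 5.73 in untreated cells. All arrays with DEX were above the untreated arrays, with or without EGF, and the EGF arrays were back near the untreated level at 120 and 240 min. These untreated and late EGF levels lay under 5.97, the upper quartile of the probesets with no gene name. ITGA10 rose by 1.72 with EGF+DEX (adjusted p = 4.1e-05) and by 1.60 with DEX (adjusted p = 0.000222) at 240 min, and was higher with EGF+DEX than with EGF by 0.75 ± 0.08 over the 5 times (adjusted p = 1.02e-05). It was thus the only integrin subunit called in EGF+DEX against EGF over the 5 times, where 0.367% of all genes were called higher. That call was lost without the EGF+DEX or the EGF array of 240 min, while the one against untreated cells with EGF+DEX held under every alternative tried.

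Among 18 measured integrin ligands of the matrix, EGF against untreated called 3 higher and 0 lower (all genes, 0.572% higher and 0.157% lower), with a median difference of 0.11 over the list. They were CTGF (2.42 at 40 min, adjusted p = 4.74e-07), CYR61 (1.90 at 20 min, adjusted p = 0.000127) and THBS1 (0.89 at 120 min, adjusted p = 0.0335), all secreted matricellular proteins. CTGF and CYR61 were high at 20 and 40 min, and late EGF cells differed from early ones by -1.87 ± 0.14 in CTGF and by -1.63 ± 0.17 in CYR61, while ITGA2 and ITGB6 had their highest EGF levels at 240 min. DEX called 1 ligand higher, LAMB1 (a laminin β chain, 0.85, adjusted p = 0.00539), and 2 lower, TGFB2 (-1.30, adjusted p = 0.00312) and THBS1 (-0.69, adjusted p = 0.0195), with 1.62% and 1.92% of all genes called higher and lower and a list median of -0.033. Without the DEX array of 240 min the largest difference of THBS1 was 0.22 (adjusted p = 0.598), and that of TGFB2 no longer passed. TGFB2 encodes a TGF-β whose latent form lacks the integrin-binding motif known from TGFB1. Late EGF+DEX against EGF called 1 higher, LAMB1 (0.62 ± 0.13, adjusted p = 0.0159), and 3 lower, TGFB2 (-0.98 ± 0.16, adjusted p = 0.00223), TNC (tenascin C, -0.68 ± 0.11, adjusted p = 0.00148) and LAMB3 (the β chain of laminin-332, -0.68 ± 0.14, adjusted p = 0.00969), with 0.964% and 1.33% of all genes called and a list median of -0.17. Leaving out an array of 120 or 240 min of either treatment ended 1 or more of these 4 calls. EGF+DEX against untreated called 3 higher, again CTGF (2.18 at 40 min, adjusted p = 4e-07), CYR61 (1.24, adjusted p = 0.00293) and THBS1 (0.59, adjusted p = 0.0381), and 1 lower, LAMA5 (a laminin α chain, -0.97, adjusted p = 0.00877), beside 2.39% and 2.48% of all genes. THBS1 was the least stable of these, its call lost in 9 of 35 alternatives with EGF and in 15 of 35 with EGF+DEX.

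**Figure D4:**
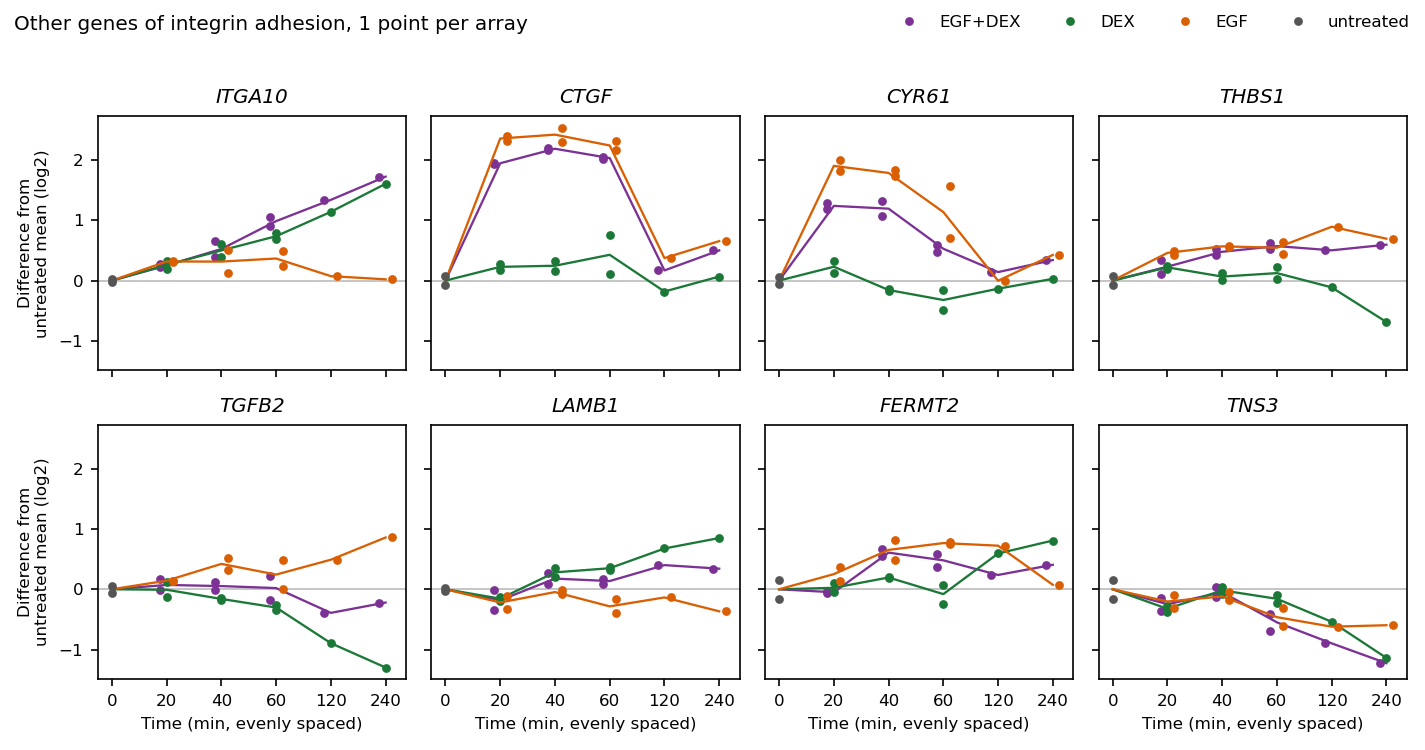
Level of 8 other genes of integrin adhesion (log2, relative to the mean of the 2 untreated arrays) at 0 to 240 min, times evenly spaced on the axis, with 1 point per array and lines through the group means for EGF+DEX, DEX and EGF. ITGA10 reaches 1.72 with EGF+DEX and 1.60 with DEX and is at 0.022 with EGF at 240 min, while CTGF reaches 2.42 with EGF at 40 min and TGFB2 falls to -1.30 with DEX at 240 min.

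On the inner side of the receptors, of 27 measured adaptors and adhesion kinases, DEX called 1 higher, FERMT2 (kindlin-2, which activates integrins by binding the β tail, 0.81, adjusted p = 0.0326), and 1 lower, TNS3 (tensin 3, which ties β tails to actin, -1.14, adjusted p = 0.00864). EGF called FERMT2 alone over the 5 times (0.77 at 60 min, adjusted p = 0.0494). TNS3 was also called lower in late EGF against untreated (-0.61 ± 0.15, adjusted p = 0.0488), where 1.41% of all genes were called. That call was lost in 18 of 34 alternatives. EGF+DEX called TNS4 (0.94, adjusted p = 0.0135) and FERMT2 (0.61, adjusted p = 0.046) higher and TNS3 lower (-1.22, adjusted p = 0.00168). The shares of all genes called were 3.54% with DEX, 0.729% with EGF and 4.87% with EGF+DEX. The FERMT2 call was lost in 9 of 35 alternatives with DEX, 21 with EGF and 17 with EGF+DEX, and that of TNS3 with DEX was lost without the DEX array of 240 min. The list medians were -0.11 for DEX, 0.031 for EGF and -0.055 for EGF+DEX. Of the 4 hemidesmosome partners of α6β4, PLEC, DST, COL17A1 and CD151, EGF and DEX called 0 each, and EGF+DEX called DST, a plakin that links β4 to keratin, lower (-0.61 at 120 min, adjusted p = 0.0298), where 0.729%, 3.54% and 4.87% of all genes were called. With EGF alone DST was at -0.43 at 120 min and -0.47 at 240 min without passing, and the EGF+DEX call was lost in 6 of 35 alternatives and turned in direction in 1.

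Across the 16 group means, the genes most like the called subunits were found by Pearson's r over all 16600 genes. For ITGA2 they were FLI1 (r = 0.956) and VEGFC (r = 0.952), for ITGB6 MPZL2 (r = 0.952) and UGCG (r = 0.941), and for ITGA5 ARHGEF5 (r = 0.918) and HOXC13 (r = 0.907). FLI1 had levels of 6.02 at 120 min and 4.99 at 240 min with DEX and 7.40 and 7.51 with EGF, against 6.64 and 6.32 in untreated cells, and ARHGEF5 reached 9.67 with EGF+DEX and 9.75 with DEX at 240 min, against 8.32 and 8.41. Among the 10 subunits the highest r was that of ITGA2 with ITGB6 (0.873), followed by ITGA2 with ITGA3 (0.811), and the lowest was that of ITGA3 with ITGA5 (-0.635). The group means share arrays, times and agents, the genes were picked for the highest values, and these correlations are descriptions with no test.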

How the data were processed

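RNA of 26 samples of MCF10A cells was hybridized by the authors to human exon arrays of Affymetrix and analysed with its Expression Console software, and they deposited linear intensity values per probeset, from 1 to 19500. How probes were summarized, whether background was corrected and which software version ran are points not given in the sources used here. The number of arrays limits the precision, and no depth applies.

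Intensities were put on the log2 scale as deposited, since no quartile varied by more than 0.0971 between arrays. Of the probesets, 14891 with several symbols were left out, and 474693 with none gave the background (4.65). Probesets above it (259048) were summarized to genes by median polish where a gene had at least 3. Tests used R 4.3.3 with limma 3.58.1: a model of 16 group means with 10 residual degrees of freedom, empirical Bayes moderation, Benjamini-Hochberg adjustment over 16600 genes, thresholds of 0.05 and 1.5-fold, and diffSplice for exon use. Differences are the first-named group minus the second on the log2 scale, errors are SE of the fit, and intervals are 95%. The procedure was tested on simulated data. Fits were repeated with the replicate number as a block, after quantile normalization, with a stricter brightness filter and without any, with probeset means, with the trend and robust options, with other fold or departure minimums, with arrays up to 60 min only, and after dropping every array once.

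The subunits, lists and tests were chosen with earlier results of these data known, and the motifs after the sequences were seen. All 10 subunits are named throughout. Of each list, called genes are named in a comparison up to 3 in each direction, by size, and 2 genes of most similar pattern for each called subunit. Some list genes are not reported here.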

Additional observations from a re-analysis of the deposited data

Results flagged for a closer look

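The responses of 3 subunits to the agents differed by a direct test over the 5 times, DEX against EGF. The differences were -0.7568 for ITGA2 (adjusted p = 1.18e-06), -0.7562 for ITGB6 (adjusted p = 4.27e-06) and -0.4169 for ITGA3 (adjusted p = 0.000212), and ITGA3 did not reach 1.5-fold. At 240 min the level was lower with DEX than with EGF in each of the 3, on 1 array per agent.

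Within a treatment, the level differed between late and early times for 4 subunits. In these differences the treatment and elapsed time cannot be told apart. Within EGF+DEX, ITGA5 was higher late by 0.6213 (adjusted p = 0.00494). Within DEX, late minus early was -0.8693 for ITGA2 (adjusted p = 0.000192), -0.5809 for ITGB6 (adjusted p = 0.0116), -0.5095 for ITGA3 (adjusted p = 0.00714) and 0.7377 for ITGA5 (adjusted p = 0.00145). Within EGF, ITGA2 was higher late by 0.5528 (adjusted p = 0.0338). The differences of ITGB6 and ITGA3 within DEX and of ITGA2 within EGF were under 1.5-fold. Whether the late differences depend on the treatment was tested only through DEX against EGF, EGF+DEX against EGF and EGF+DEX against DEX.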

How the results depend on the processing

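Over 120 results of the 10 subunits and 4140 alternatives, 4057 kept their side of the threshold, 44 calls were lost, 39 were gained and 0 calls changed direction. Uncalled differences turned their sign in 106 alternatives of 39 results, none of them past the threshold. Most lost calls came with the loss of an array of 240 min or with a fold minimum of 2. Leaving out 1 array moved the number of subunits called to 0 to 1 for EGF, 0 to 3 for DEX and 1 to 1 for EGF+DEX against untreated, 0 to 0 for EGF+DEX against EGF, 0 to 1 against DEX, 0 to 2 for DEX against EGF, 0 to 2 for late EGF and 1 to 4 for late DEX against untreated, 0 to 3 for late EGF+DEX against EGF, 0 to 1, 0 to 3 and 0 to 1 for late against early within EGF, DEX and EGF+DEX, and 1 to 3 and 0 to 4 for exon use against EGF and untreated. With only the times to 60 min, 0 were called for DEX and 0 for EGF+DEX against untreated and 0 for DEX against EGF. With no fold minimum, 3 were called for EGF+DEX against EGF, 2 against DEX, 4 for late DEX against untreated, and 1 and 4 for late against early within EGF and DEX. With a fold minimum of 2, 1 was called for DEX against untreated and 0 for DEX against EGF, for late EGF and late DEX against untreated, for late EGF+DEX against EGF, and for late against early within DEX and EGF+DEX. A stricter brightness filter called 1 for EGF and 2 for EGF+DEX against untreated, trend and robust options 1 for EGF and 4 for DEX against untreated, and the mean of probesets 1 for EGF+DEX against DEX and 0 for late against early within EGF+DEX. In exon use, no minimum departure called 5 against EGF, a minimum of 2 called 0 and 1 against EGF and untreated, and the stricter filter 0 and 1. With only the times to 60 min, the largest difference turned positive for DST with EGF+DEX (0.16, adjusted p = 0.612) and, with DEX, for THBS1 (0.22, adjusted p = 0.679), which over single arrays left out ran from -0.75 to 0.22 (0.22 being without the DEX array of 240 min, adjusted p = 0.598), and EGR1 (0.52, adjusted p = 0.447). Replicate numbers did not pair the arrays throughout: differences between replicates correlated at -0.197 to 0.309 over 45 pairs of groups, 12 of them over 0.1. Among the untreated group and the groups of 20 min all correlations were positive, at 0.055 to 0.309. A part shared by arrays of the same number is thus possible there. ITGA3 was also called for late DEX against untreated without the DEX array of 120 min (-0.61) or untreated replicate 1 (-0.62), and ITGB6 without that DEX array (-0.81). With the replicate block, late DEX called 3 subunits against untreated and 3 against early DEX, in place of 2 each (ITGB6 was added), and the other counts stayed. The causes were not tested, beyond the loss of arrays itself. The exon use calls of ITGA5 and ITGB1 rest on probesets that read near background, which limits them.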
